A study of Mus musculus with 8 samples.

Results

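The 31 genes described here are markers of the cells of blood vessels, 20 of endothelial cells and 11 of mural cells, that is smooth muscle cells and pericytes. They were taken from a list of names, matched to the gene names in the authors' deposited table of comparisons, and their counts were read by gene identifier from the 8 tables of raw counts. All 31 were among the 49584 counted features and all 31 passed the filter on low counts that left 17891 genes for testing. The libraries were TruSeq libraries of total RNA that had been isolated from crude mitochondria, prepared from the hearts of 4 control and 4 knockout mice. Both groups carried loxP-flanked Tefm alleles (L/L); Tefm is the mitochondrial transcription elongation factor. The controls had no cre and are given as Tefm +/+ in the genotype label, and the knockouts (L/L, cre; Tefm -/-) expressed cre from the muscle creatine kinase promoter. That promoter is known for activity in heart and skeletal muscle, so the vascular cells are not the cells in which the labels place the deletion. The labels used here give neither age nor sex of the mice.

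Endothelial cells line every vessel. They are held together by junction proteins such as VE-cadherin, read the growth factors VEGF and angiopoietin through receptor tyrosine kinases, and keep their identity through ETS and SOX transcription factors. Mural cells wrap that lining: smooth muscle cells, with a contractile apparatus of smooth muscle actin and myosin, around arteries and veins, and pericytes, which need PDGF-B from the endothelium and express its receptor, around capillaries. The heart is among the tissues richest in capillaries, and its muscle cells are a source of VEGF and angiopoietin 1 for the vessels around them.

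The promoters of 5 endothelial genes are shown as examples of what lies upstream of genes with different results: Kdr and Tek fell in the knockout libraries, Flt1 and Eng did not pass the test, and Cldn5 rose. Each sequence is the 250 bases just before the annotated start, on the gene's strand, from RefSeq (GRCm38.p6), at chr5:75978456-75978705 (minus strand), chr4:94739039-94739288 (plus), chr5:147726012-147726261 (minus), chr2:32646345-32646594 (plus) and chr16:18776597-18776846 (plus). Capitals mark AGGAAG or, for a match on the other strand, CTTCCT, which hold the GGAA core that ETS factors such as Erg bind.
Kdr: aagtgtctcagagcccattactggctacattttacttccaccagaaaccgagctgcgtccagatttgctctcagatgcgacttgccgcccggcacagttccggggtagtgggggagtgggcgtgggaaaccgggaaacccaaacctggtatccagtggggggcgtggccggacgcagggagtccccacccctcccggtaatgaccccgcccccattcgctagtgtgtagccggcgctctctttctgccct
Tek: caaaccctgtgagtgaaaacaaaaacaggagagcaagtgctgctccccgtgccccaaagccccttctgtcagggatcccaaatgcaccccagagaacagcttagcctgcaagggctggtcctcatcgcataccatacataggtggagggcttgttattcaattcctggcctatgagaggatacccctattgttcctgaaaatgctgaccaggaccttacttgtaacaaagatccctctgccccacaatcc
Flt1: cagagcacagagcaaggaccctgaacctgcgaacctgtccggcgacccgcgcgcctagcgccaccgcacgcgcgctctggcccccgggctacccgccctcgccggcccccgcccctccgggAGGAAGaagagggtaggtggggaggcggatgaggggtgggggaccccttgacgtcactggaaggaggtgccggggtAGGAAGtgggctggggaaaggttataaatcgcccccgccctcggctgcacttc
Eng: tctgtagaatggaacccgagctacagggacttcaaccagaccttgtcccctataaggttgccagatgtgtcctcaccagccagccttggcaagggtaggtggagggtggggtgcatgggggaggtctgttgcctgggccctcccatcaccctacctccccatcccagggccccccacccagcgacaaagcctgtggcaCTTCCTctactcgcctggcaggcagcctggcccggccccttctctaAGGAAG
Cldn5: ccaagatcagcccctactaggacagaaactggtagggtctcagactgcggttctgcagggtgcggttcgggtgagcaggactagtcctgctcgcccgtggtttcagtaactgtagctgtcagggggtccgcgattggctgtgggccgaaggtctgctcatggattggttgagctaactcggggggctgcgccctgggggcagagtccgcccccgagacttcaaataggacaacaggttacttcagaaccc
The Flt1 window held the motif at -129 and -53 and the Eng window at -52 and -6, counted with -1 as the base just before the start. The Kdr, Tek and Cldn5 windows held no match to the motif. The shorter GGAA core, or TTCC for the other strand, does occur unmarked in the Kdr and Tek windows. The windows of Tie1 (at -219) and Robo4 (at -49), receptors that fell like Kdr and Tek, held the motif. The RefSeq table had windows for 18 of the 31 genes, 22 windows in all. Of these 8 held the motif on either strand (36.4%), against 29.5% of the 32851 windows of all genes. All 8 were among the 14 endothelial windows, and none of the 8 mural windows held it. The CArG box is the serum response factor motif of many smooth muscle genes. Its strict form, CCWWWWWWGG with A or T at each W, was in 0 of the 22 windows and in 1.47% of all windows. Variants of that form were not searched, and Tagln and Myh11 had no window. The count therefore does not show that these promoters lack such elements. A match is a string of letters and not a measured binding site.

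Library totals were 21108165 to 27403415 counts. mtDNA features took 72.3% to 74.0% of the counts in controls and 38.7% to 59.3% in knockouts, with knockout 1 at 59.3%, so nuclear genes such as these had more reads in the knockouts. Levels are given below as CPM, edgeR's counts scaled to a common library size with TMM factors, which sets the median gene at about the same level in both groups. Without that scaling the median log2 fold change of all genes moves by 0.99, so every direction given here is relative to the typical gene unless library totals are named. Over raw counts of all features, knockout 1 differed from the other knockouts with a chi-square of 91.2 to 140 per degree of freedom. Among the other knockouts it was at most 15.7. These values include the mtDNA features and are scaled by library totals only, so they are not separate from the mtDNA share. Tefm, counted over the whole gene, was at 5.80, 6.13, 5.87 and 7.18 CPM in controls and 6.35, 6.74, 6.64 and 7.72 CPM in knockouts, a log2 fold change of 0.14 ± 0.11 (SE; edgeR quasi-likelihood test, adjusted p = 0.324). No source used here states which part of Tefm is deleted, and counts over a whole gene need not show the loss of a part. Tefm therefore checks no label here. The cardiomyocyte list, which includes Myh6, Ttn and Ryr2, summed to between 66519 and 70320 CPM in controls, so the defining genes of the labelled tissue were present. In RNA of whole tissue, fewer cells of a type and less RNA per cell cannot be told apart, and in a crude mitochondrial preparation neither can a change in what co-purifies with mitochondria.

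Both kinds of markers were present in every library. Per kilobase of annotated exon, the control level was highest for Rgs5, a G-protein regulator of pericytes, at 89.3 ± 1.81 CPM per kb (SD, n = 4), followed by Cdh5 (VE-cadherin) at 22.7 ± 0.661. Egfl7, a secreted endothelial matrix protein, at 15.8 ± 0.658 and Smtn, the smooth muscle cytoskeletal protein smoothelin, at 14.6 ± 0.941 came next and lay within their spread of each other. Kdr stood at 12.4 ± 0.261, Acta2 at 11.7 ± 2.51, Pecam1 at 10.8 ± 0.844 and Esam at 10.3 ± 0.239 CPM per kb, and in this run no gene stood above the next by more than their summed SDs. The lowest were Sox17 at 1.16, Vwf at 1.08 and Cnn1, the smooth muscle protein calponin, at 0.355 CPM per kb. In knockouts 5 of the 31 genes kept their rank (Rgs5, Cdh5, Flt1, Nos3 and Cnn1). Smtn went from rank 4 to rank 15, at 5.32 ± 0.665 CPM per kb, Acta2 from rank 6 to 14 and Kdr from rank 5 to 11, while Cldn5 went from rank 9 to rank 3, at 17.8 ± 1.22 CPM per kb, Gpihbp1 from rank 11 to 5 and Eng from rank 14 to 8.

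Of the 20 endothelial genes 5 rose, 7 fell and 8 did not pass the test at an adjusted p of 0.05. Over all genes tested 26.1% were called higher and 23.9% lower, so the endothelial shares of 25% higher and 35% lower lie near that background. Of the 11 mural genes 2 rose (18.2%), 3 fell (27.3%) and 6 did not pass. The median log2 fold change was -0.07 over the endothelial genes and -0.08 over the mural genes, beside -0.01 over all genes. With library totals as the only scaling, 19 endothelial genes were higher and 0 lower, 9 mural genes higher and 1 lower, and the medians were 0.93 and 0.91. Over all genes 78.6% were then higher and 2.68% lower.

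**Figure D1:**
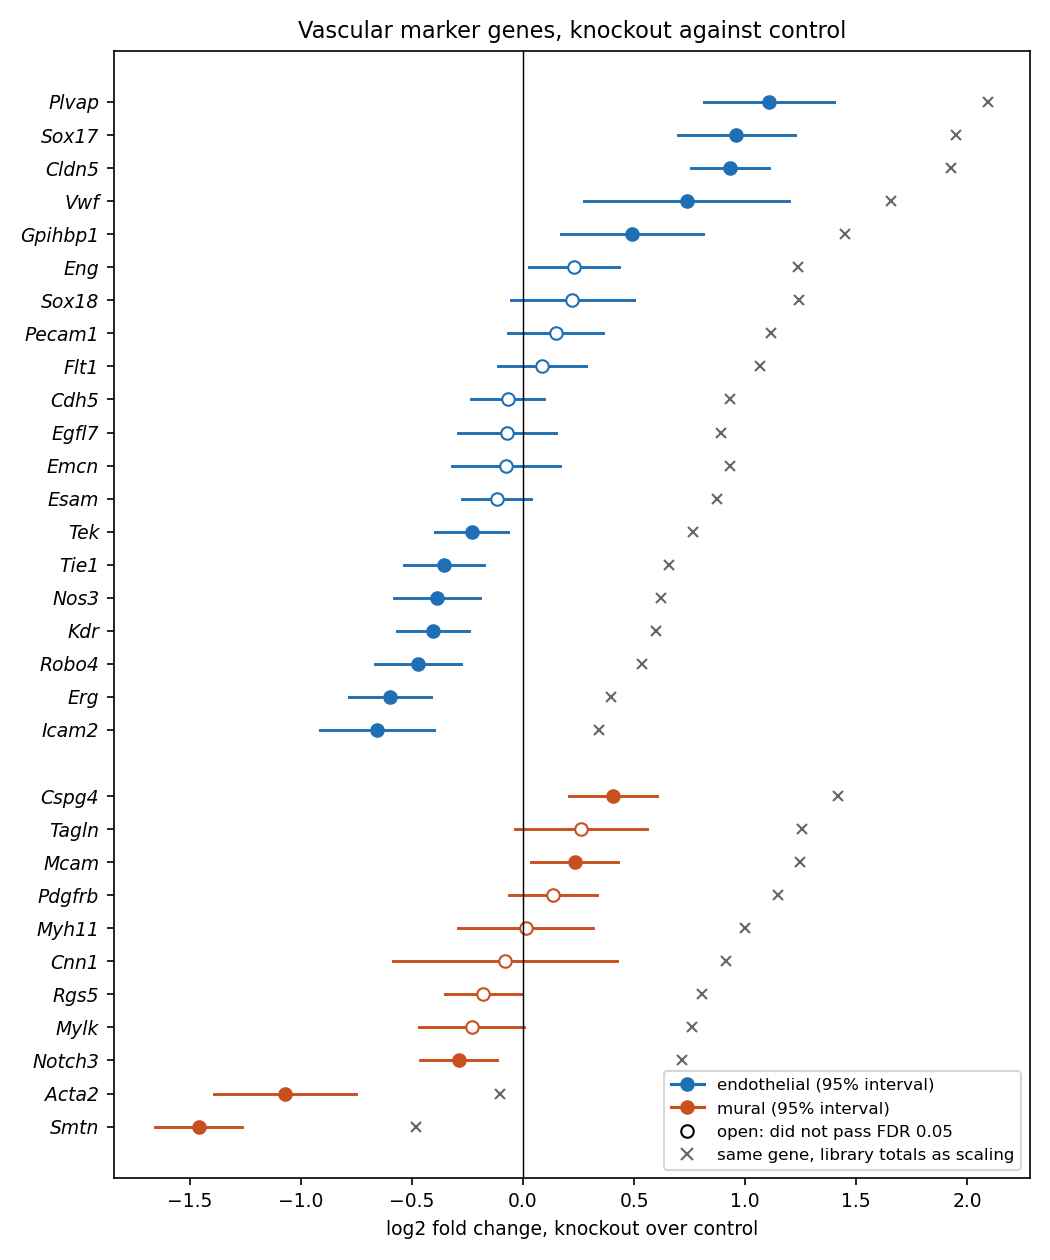
Log2 fold change of each of the 31 marker genes, knockout over control (horizontal axis), with 95% intervals from the edgeR fit for the 20 endothelial genes (blue) and the 11 mural genes (orange). Filled points passed an adjusted p of 0.05, and crosses give the same gene with library totals as the only scaling, which moves nearly all genes to the right; Smtn and Acta2 are the 2 genes whose crosses stay left of 0.

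Among the 8 junction and surface genes of the endothelium, 3 rose, 1 fell and 4 did not pass. Cldn5, the main claudin of endothelial tight junctions, was at 12.6, 14.0, 12.1 and 14.1 CPM in the controls and at 24.8, 27.6, 24.9 and 23.5 CPM in the knockouts. The 4 knockouts lay together, well above the controls, with a log2 fold change of 0.93 ± 0.08 (SE; edgeR quasi-likelihood test, adjusted p = 5.64e-07). Plvap, which forms the diaphragms of caveolae and fenestrae, was a gene of low level, at 2.69, 2.52, 1.94 and 2.24 CPM in controls and 5.28, 5.09, 5.28 and 4.60 CPM in knockouts. Its log2 fold change of 1.11 ± 0.14 (edgeR adjusted p = 1.33e-05) was the largest rise of the 31 genes, and its groups did not overlap. Over all genes 23.9% had every knockout above every control and 21.5% had every knockout below.

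Gpihbp1, which carries lipoprotein lipase across capillary endothelium, was at 20.8 to 26.4 CPM in controls and at 42.7, 24.9, 36.6 and 26.6 CPM in knockouts. It passed the test with a log2 fold change of 0.49 ± 0.15 (edgeR adjusted p = 0.0139), but knockout 2 lay within the range of the controls. Icam2, an adhesion protein that leukocytes bind, went the other way, from 8.75, 6.71, 9.57 and 9.37 CPM to 5.16, 5.33, 5.94 and 5.36 CPM. Its log2 fold change was -0.66 ± 0.12 (edgeR adjusted p = 0.000424), with no overlap, and with library totals it was 0.34. The general endothelial markers of this group did not pass. Pecam1 was at 61.1 to 72.6 CPM in controls and 62.0 to 88.5 CPM in knockouts (log2 fold change 0.15, 95% interval -0.07 to 0.36). Cdh5 was at 91.4 to 97.4 and 81.8 to 99.7 CPM (-0.07, -0.23 to 0.10). For the junction protein Esam the log2 fold change was -0.12 and for the sialomucin Emcn -0.08.

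**Figure D2:**
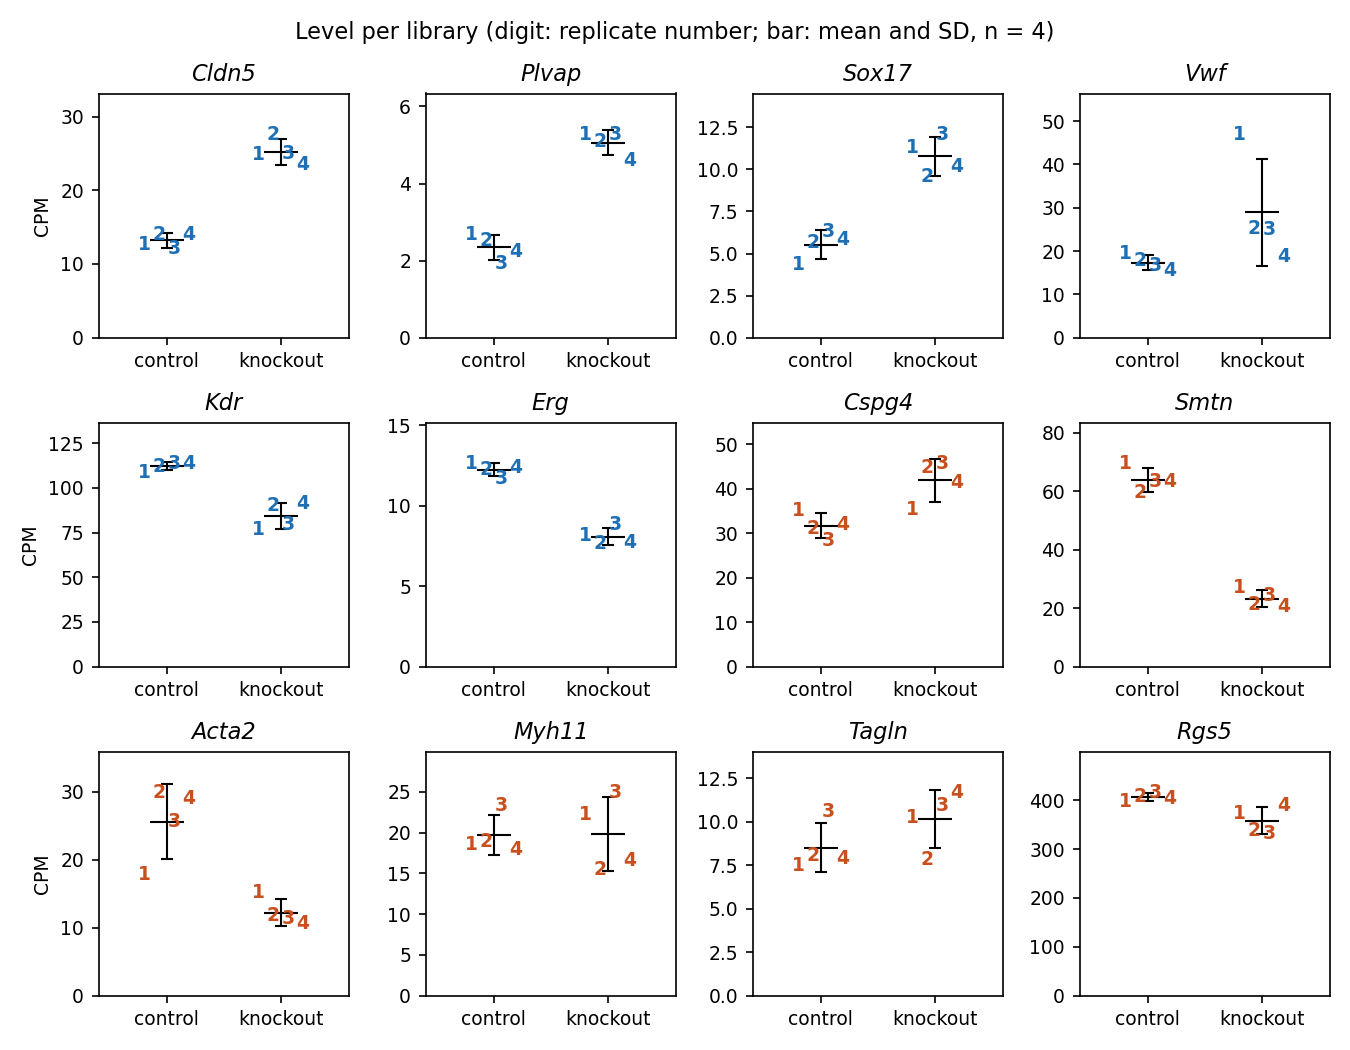
TMM-scaled CPM (vertical axis, from 0) of 12 of the marker genes in each of the 8 libraries, drawn as replicate numbers, with the mean and SD (n = 4) as bars; endothelial genes in blue, mural genes in orange. Cldn5, Plvap and Sox17 lie higher in all 4 knockouts, Kdr, Erg, Smtn and Acta2 lower, Vwf is highest in knockout 1 at 47.0 CPM, and Myh11 and Tagln overlap.

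The 6 endothelial receptors held no gene called higher: 4 fell and 2 did not pass, where 23.9% of all genes fell and 26.1% rose. Kdr, the main signalling receptor for VEGF, was at 109, 112, 114 and 114 CPM in controls and 76.9, 90.4, 79.8 and 91.1 CPM in knockouts, a log2 fold change of -0.41 ± 0.08 (edgeR adjusted p = 0.000482). Robo4, an endothelial member of the roundabout receptors, had almost no spread in controls, 21.0 to 21.6 CPM, and lay at 13.6, 16, 17.9 and 13.9 CPM in knockouts (-0.47 ± 0.09, edgeR adjusted p = 0.000627). Tie1, the partner of the angiopoietin receptor, was at 44.7, 41.6, 47.1 and 43.2 CPM against 30.2, 33.0, 36.1 and 38.7 CPM (-0.35 ± 0.08, edgeR adjusted p = 0.00282). In all 3 genes every knockout lay below every control.

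Tek, the angiopoietin receptor itself, showed the smallest called fall, from 24.7 to 27.6 CPM in controls to 20.1 to 23.9 CPM in knockouts. Its log2 fold change was -0.23 ± 0.08 (edgeR adjusted p = 0.0225), without overlap. That call did not hold in DESeq2 (adjusted p = 0.0633), without the filter on low counts (edgeR, 0.125), or without control 1, 3 or 4 or knockout 2 (edgeR, 0.0506 to 0.0681). Flt1, the VEGF receptor that binds VEGF tightly and is also made as a soluble form, was at 58.6 to 68.7 CPM in controls. In knockouts Flt1 was at 75.5, 66.7, 64.8 and 55.8 CPM, with a log2 fold change of 0.09 (95% interval -0.11 to 0.28). Eng, a co-receptor for BMP and TGF-beta ligands, had a log2 fold change of 0.23 ± 0.09 (edgeR adjusted p = 0.0565). It passed without the filter on low counts and without control 3, knockout 1 or knockout 4 (edgeR adjusted p = 0.0163 to 0.0449). With library totals all 6 receptors lay higher, from 0.54 for Robo4 to 1.24 for Eng.

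The 3 transcription factors split. Erg, the ETS factor that maintains endothelial identity, was at 12.6, 12.3, 11.7 and 12.4 CPM in controls and 8.14, 7.64, 8.83 and 7.72 CPM in knockouts (-0.60 ± 0.09, edgeR adjusted p = 5.56e-05; 0.40 with library totals). Sox17, a SOX factor of arterial endothelium, went from 4.32, 5.66, 6.31 and 5.83 CPM to 11.3, 9.55, 12.1 and 10.1 CPM (0.96 ± 0.12, edgeR adjusted p = 1.99e-05). Neither gene overlapped between groups. Sox18, a relative of Sox17, was at 12.4 to 17.1 CPM and 13.5 to 20.3 CPM (0.22 ± 0.13, edgeR adjusted p = 0.168), and passed without knockout 1 (0.32, edgeR adjusted p = 0.0116). A noncoding transcript on the other strand, Gm37587, covers 16.85% of the exon length of Sox17. It held 8, 10, 14 and 6 counts in controls and 39, 38, 46 and 27 in knockouts, and since no source states that counting used strand, reads of the 2 genes cannot be told apart there. Sox17 itself had 421 counts over the controls and 1366 over the knockouts.

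Of the secreted proteins and enzymes, Vwf rose, Nos3 fell and Egfl7 did not pass. Vwf, the clotting protein of Weibel-Palade bodies, was at 19.4, 17.8, 16.8 and 15.4 CPM in controls and 47.0, 25.2, 24.9 and 18.8 CPM in knockouts. Knockout 1 was far above the others, knockouts 2 and 3 lay above the highest control and knockout 4 within the controls. The log2 fold change of 0.74 ± 0.21 (edgeR adjusted p = 0.0108) was 0.40 without knockout 1, where the call held (edgeR adjusted p = 0.00302). The summed level of 6 erythroid genes (globins, Alas2 and Slc4a1), which mark blood left in the tissue, was also highest in knockout 1, at 907 CPM, beside 252, 329 and 172 CPM in the other knockouts and 182 to 458 CPM in controls; its part in the Vwf level was not tested. Nos3, endothelial nitric oxide synthase, was at 14.3 to 16.9 CPM and 10.9 to 13.2 CPM (-0.39 ± 0.09, edgeR adjusted p = 0.00246), without overlap between groups, but 32.3% of its exon length is shared with the overlapping genes Gm15587 and Atg9b. Egfl7 was at 66.5 CPM in knockout 1, above all controls, and at 45.1 to 54.9 CPM in the other knockouts, below all controls (55.1 to 60.2 CPM). Its log2 fold change was -0.07 with all libraries and -0.19 without knockout 1 (edgeR adjusted p = 0.0322).

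Of the 6 contractile genes of smooth muscle 2 fell and 4 did not pass, and the fall of Smtn was the largest change among the 31 genes. Smtn was at 69.6, 59.7, 63.5 and 63.3 CPM in controls and 27.0, 21.3, 24.3 and 20.6 CPM in knockouts. The log2 fold change was -1.46 ± 0.09 (edgeR adjusted p = 1.92e-08), and it was the only member that stayed lower and called with library totals (-0.48). Genes on the other strand cover 16.3% of its exon length. The counted one, Gm11946, had 107 to 128 raw counts in controls and 153 to 218 in knockouts. These counts are not scaled, and nuclear genes had more reads in the knockouts, so they give no direction relative to the typical gene. In raw counts Smtn had 4877 over the controls and 2939 over the knockouts. Acta2, smooth muscle alpha-actin, was at 17.8, 29.9, 25.6 and 29.0 CPM in controls and 15.1, 11.8, 11.3 and 10.7 CPM in knockouts (-1.07 ± 0.15, edgeR adjusted p = 4.18e-05; -0.11 with library totals, where the call was lost). Control 1 was the lowest control and knockout 1 the highest knockout, and the groups did not overlap. Acta2 shares 0.326% of its 50-base words with other actin genes and pseudogenes.

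The other 4 contractile genes did not pass. Myh11, the smooth muscle myosin heavy chain and the most specific marker of the group, was at 18.6, 18.9, 23.3 and 17.9 CPM in controls. In knockouts Myh11 was at 22.3, 15.5, 25 and 16.6 CPM, a log2 fold change of 0.01 (95% interval -0.29 to 0.32). Tagln, an actin-binding protein (transgelin), was at 7.48 to 10.6 CPM and 7.84 to 11.7 CPM (0.26 ± 0.14). It passed without the filter on low counts and without control 3 or knockout 2 (edgeR adjusted p = 0.0235 to 0.0484), but 67.9% of its exon length is shared with Pcsk7 and Gm48529. Mylk, myosin light chain kinase, had a log2 fold change of -0.23 ± 0.11 (edgeR adjusted p = 0.0972) and passed without knockout 1 or 3 (0.0428 and 0.0236). Cnn1, with 74 counts over all controls, had a log2 fold change of -0.08 with a 95% interval of -0.58 to 0.42. Of 11 mural and 20 endothelial genes, 2 mural genes and 0 endothelial genes were called lower by at least 2-fold, a fall that 6.72% of all genes showed, and 0 mural genes and 1 endothelial gene were higher by at least 2-fold, as were 7.32% of all genes.

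Of the 5 genes of pericytes and mural surfaces 2 rose, 1 fell and 2 did not pass. Cspg4, a proteoglycan of pericytes, was at 35.2, 31, 28.4 and 32.0 CPM in controls and 35.3, 44.9, 45.8 and 41.5 CPM in knockouts (0.40 ± 0.09, edgeR adjusted p = 0.00239), with knockout 1 just above the highest control. Notch3, the Notch receptor of mural cells, fell from 28.7 to 32.6 CPM to 21.9 to 27.5 CPM (-0.29 ± 0.08, edgeR adjusted p = 0.00872; 0.72 with library totals). Mcam, an adhesion protein of mural and endothelial cells, passed with 0.23 ± 0.09 (edgeR adjusted p = 0.0464). Its groups overlapped, and the call was lost in DESeq2 (adjusted p = 0.0536) and without any 1 of the controls or without knockout 2 or 3 (edgeR, 0.0609 to 0.148). Pdgfrb, the PDGF receptor of pericytes, was at 44.3 to 53.0 CPM and 44.8 to 59.2 CPM (0.14, 95% interval -0.06 to 0.33). Pdgfrb passed without knockout 1 (0.20, edgeR adjusted p = 0.0307). Rgs5 was at 397, 408, 417 and 403 CPM in controls and 373, 338, 331 and 390 CPM in knockouts. Its groups did not overlap, but its log2 fold change of -0.18 ± 0.08 did not pass (edgeR adjusted p = 0.0732); it passed without knockout 1 (0.0163) and without knockout 4 (0.0488).

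Set against each other, the endothelial and mural groups had medians close to each other. In each library the median log2 difference of a group's genes from their control means was taken. The endothelial medians of knockouts 1 to 4 were -0.09, -0.08, 0.02 and -0.07, and the mural medians -0.12, -0.25, 0.02 and -0.06. The mural minus the endothelial median, which no scaling of a library can change, was -0.03, -0.17, 0.01 and 0.01 in knockouts and -0.03, -0.03, 0.01 and -0.02 in controls. Only knockout 2 lay outside the controls by more than 0.01. Without Acta2 and Smtn, a choice made after their values were seen, the median log2 fold change over the other 9 mural genes was 0.01, and their medians by library were -0.10, -0.14, 0.16 and 0.15 in knockouts 1 to 4 and -0.03, -0.03, 0.04 and -0.04 in controls, so knockouts lay on both sides of the controls.

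Summed levels gave another view, since high genes weigh more in them. The 20 endothelial genes summed to 670, 669, 703 and 668 CPM in controls and 708, 644, 683 and 644 CPM in knockouts, which overlapped. The 11 mural genes summed to 669 to 689 CPM in controls and 569 to 612 CPM in knockouts, without overlap. Rgs5, which did not pass the test, gave most of that sum, with a mean of 406 CPM in controls and 358 CPM in knockouts. The mean of Smtn was 64.0 CPM in controls and 23.3 CPM in knockouts. Of the 11 genes 2 were called higher and 3 lower, so the sum does not stand for a fall of each mural gene. The 6 contractile genes alone summed to 135, 138, 148 and 141 CPM in controls and 95.2, 72.4, 94.4 and 77.8 CPM in knockouts, and the 6 endothelial receptors to 290 to 316 CPM and 257 to 271 CPM.

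**Figure D3:**
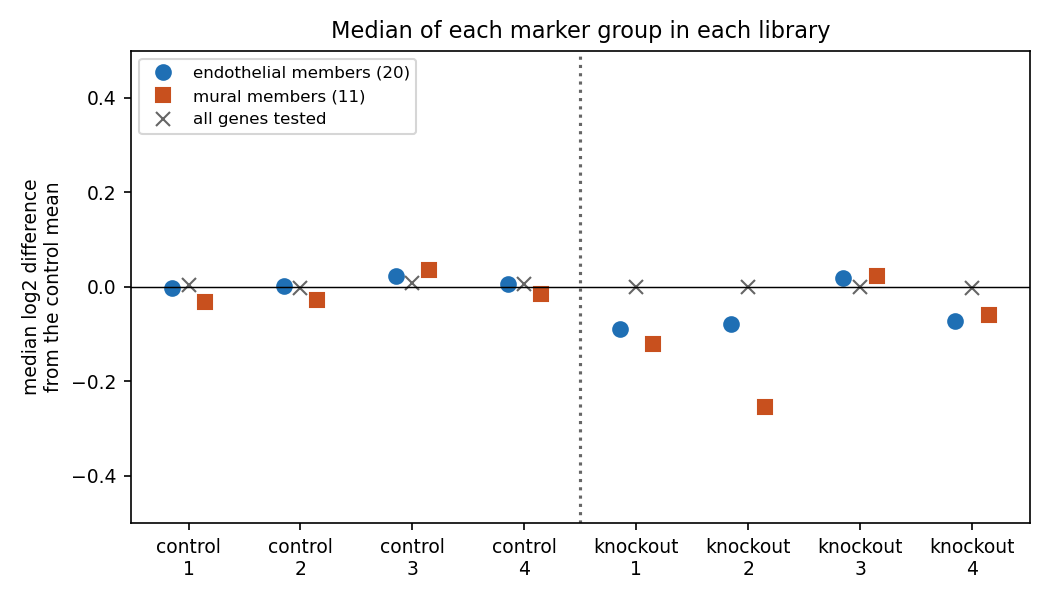
For each library (horizontal axis), the median over the 20 endothelial genes (circles), the 11 mural genes (squares) and all genes tested (crosses) of the log2 difference from the control mean. The groups lie within 0.10 of 0 in every library but knockouts 1 and 2, where the mural median is -0.12 and -0.25.

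Ratios of 2 genes within a library do not depend on scaling. They show how far 2 genes moved apart in the RNA of a library, but not whether they did so within the same cells. The pairs were chosen with the results above known and are given as a description. The log2 ratio of Flt1 to Kdr counts was -0.83, -0.93, -0.73 and -0.96 in controls and -0.03, -0.44, -0.30 and -0.71 in knockouts, a mean difference of 0.49 without overlap. Knockout 4 lay just above the highest control. The ratio of Sox17 to Erg was the most distinct among the pairs of endothelial genes, -1.16 ± 0.28 (SD, n = 4) in controls and 0.41 ± 0.07 in knockouts. Cldn5 gained on Cdh5 by 1.01 and Plvap on Pecam1 by 0.98. Among smooth muscle genes, the ratio of Smtn to Myh11 changed by -1.46 (1.71 ± 0.20 in controls, 0.25 ± 0.21 in knockouts). The ratio of Acta2 to Myh11 changed by -1.04. Among pericyte genes Cspg4 gained 0.58 on Rgs5. The ratios of Tek to Tie1, of Tagln to Myh11, of Vwf to Pecam1 and of Pdgfb to Pdgfrb, the last with a mean difference of 0.08, overlapped between groups.

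**Figure D4:**
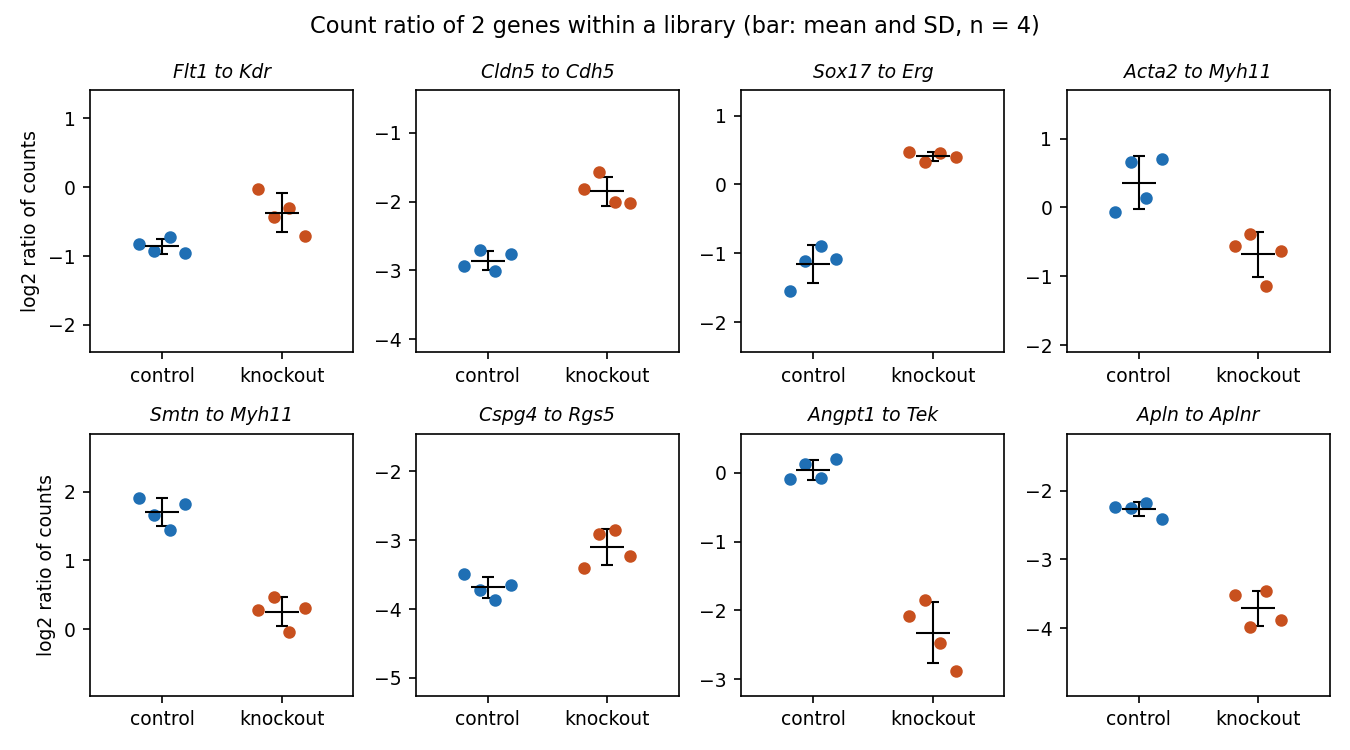
Log2 ratio of the counts of 2 genes in the same library (vertical axis) for 8 gene pairs, with controls in blue, knockouts in orange, and bars for the mean and SD (n = 4). The 4 pairs whose groups overlap are not drawn. Also not drawn are Plvap to Pecam1, Sox17 to Sox18, Angpt1 to Angpt2 and Dll4 to Notch1, whose groups do not overlap. The 8 drawn pairs separate the groups, from a difference of 0.49 for Flt1 to Kdr to -2.36 for Angpt1 to Tek.

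Among the ligands that act on these cells, 2 of 15 rose, 5 fell and 8 did not pass. The falls included the largest changes of any vascular gene listed. Angpt1, the activating ligand of Tek, was at 25.2, 26.9, 25.3 and 31.6 CPM in controls and 5.28, 5.56, 4.30 and 3.25 CPM in knockouts, a log2 fold change of -2.57 ± 0.14 (edgeR adjusted p = 5.09e-09; -1.59 with library totals). The ratio of Angpt1 to Tek moved by -2.36 and that of Angpt1 to its antagonist Angpt2 by -2.40. Apln, the peptide apelin, fell from 12.6, 10.7, 11.8 and 11.5 CPM to 1.11, 2.32, 1.96 and 2.55 CPM (-2.53 ± 0.17, edgeR adjusted p = 4.42e-08; -1.52 with library totals). The Notch ligand Dll4 fell by 0.89, the VEGF relatives Pgf by 1.08 and Vegfb by 0.42 on the log2 scale. With library totals Dll4 and Vegfb lay higher (0.10 and 0.60) and the call on Pgf was lost (-0.09). Vegfa, the main ligand of Kdr, was at 134 to 205 CPM in controls and 140 to 179 CPM in knockouts (-0.13, edgeR adjusted p = 0.449). Vegfd rose by 1.27 at levels below 2 CPM. Edn1, endothelin, rose by 0.64 (edgeR adjusted p = 0.0267), a call lost without control 1, control 2 or knockout 3 (0.0520 to 0.0967).

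Of 20 further receptors and mediators of vascular signals 4 rose and 6 fell. Hif1a, the oxygen-regulated transcription factor, went from 46.1, 44.9, 47.1 and 43.1 CPM to 149, 185, 188 and 186 CPM (1.97 ± 0.09, edgeR adjusted p = 7.72e-10). Ednrb, an endothelin receptor, went from 11.1 to 12.7 CPM to 38.7 to 47.6 CPM (1.92 ± 0.09). Neither is expressed by vascular cells alone. Klf4 and S1pr1 also rose, by 0.56 and 0.22, each with calls lost without some libraries: control 3, knockout 2 or knockout 3 for Klf4, and any 1 of the controls, knockout 3 or knockout 4 for S1pr1. The VEGF co-receptors fell, Nrp1 from 93.1 to 107 CPM to 51.4 to 59.4 CPM (-0.81 ± 0.07) and Nrp2 from 46.0 to 51.2 CPM to 21.1 to 29.8 CPM (-0.92 ± 0.10), though with library totals they were at 0.17 and 0.10. Chosen after their values were seen, as partners of ligands above, the apelin receptor Aplnr (-1.05 ± 0.24) and Notch1 (-0.43 ± 0.09) fell too, to be at 0.000551 and 0.58 with library totals. Within a library Apln still fell by 1.44 relative to Aplnr and Dll4 by 0.48 relative to Notch1, in both cases without overlap. Over both lists 6 of 35 genes (17.1%) rose and 11 (31.4%) fell, beside 26.1% and 23.9% of all genes; without knockout 3 the count of rises was 3.

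Markers of the same cells outside the 31 genes were counted in the same way. Of 25 further endothelial markers 7 rose, 6 fell and 12 did not pass, beside 26.1% of all genes called higher and 23.9% lower, with a median log2 fold change of 0.02. Ushbp1 fell from 43.5 to 45.5 CPM to 24.0 to 29.7 CPM (-0.74 ± 0.08, edgeR adjusted p = 2.34e-06), and the caveolar coat gene Cav1 (-0.67 ± 0.10) and Sox7 (-0.77 ± 0.12), a relative of Sox17, fell as well; with library totals these were at 0.26, 0.33 and 0.25. Npr3, the clearance receptor of natriuretic peptides, rose by 0.83.

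Of 18 further smooth muscle genes 17 were tested; 2 rose, 8 fell and the median was -0.22. Synpo2 fell from 95.2 to 105 CPM to 32.2 to 41.6 CPM (-1.48 ± 0.09, edgeR adjusted p = 8.85e-09). With library totals Synpo2 was at -0.51. Pcp4l1 (-1.58 ± 0.13), Myocd, the co-activator of smooth and cardiac muscle genes (-1.15 ± 0.17), and Tpm1 (-0.67 ± 0.14) fell. Srf, the factor that Myocd binds, rose by 0.33 and Cald1 by 0.24. With library totals the call on Myocd was lost (-0.22) and Tpm1 was at 0.27, and the call on Cald1 was lost without control 1, control 3 or knockout 4 (edgeR adjusted p = 0.0545 to 0.0681). Of 12 further pericyte genes 1 rose, 6 fell and the median was -0.24. Abcc9, a potassium channel subunit, fell from 180 to 192 CPM to 78.2 to 110 CPM (-1.05 ± 0.10), Vtn by 1.29 on the log2 scale, and the intermediate filament gene Des rose by 0.86. With library totals the calls on Abcc9 and Vtn were lost (-0.09 and -0.27). Myocd, Tpm1, Abcc9, Des, Synpo2 and Srf are known from heart muscle cells as well as from mural cells. Over the 54 tested genes of these 3 lists 10 rose (18.5%) and 20 fell (37.0%), beside 26.1% and 23.9% of all genes.

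Markers of other cells moved beside these changes. Of 12 cardiomyocyte genes 9 fell and 1, Actn2, rose, with a median of -0.66, where 23.9% of all genes fell and 26.1% rose. With library totals 4 were lower and 6 higher, with a median of 0.30. Over all genes 2.68% were then lower and 78.6% higher, with a median of 0.97. In TMM-scaled CPM the 12 cardiomyocyte genes summed to 66519 to 70320 CPM in controls and 39501 to 50964 CPM in knockouts. The 8 fetal and atrial cardiomyocyte genes summed to 670 to 735 CPM in controls and 3326 to 4769 CPM in knockouts; of the 5 tested, Nppa, Nppb, Acta1 and Myh7 rose. Of 10 fibroblast genes Postn, Col1a1, Col1a2 and Tcf21 rose and Dpt and Gsn fell, with a median of 0.35 (1.39 with library totals) and sums of 466 to 492 CPM and 389 to 628 CPM. Of the 8 leukocyte genes tested Ptprc, Lyz2, C1qa and C1qb fell, with a median of -0.50 (0.51 with library totals), and the sum over 10 genes was 115 to 166 CPM and 84.1 to 122 CPM. Mesothelial genes summed to 3.04 to 6.65 CPM and 2.27 to 6.27 CPM, Schwann cell genes to 7.44 to 10.8 CPM and 5.12 to 6.69 CPM, and none of the 5 adipocyte genes reached the filter, with sums below 0.50 CPM. No listed gene was at 0 in all 8 libraries. What part these cells have in the levels of Acta2, Smtn or the other vascular genes was not tested.

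**Figure D5:**
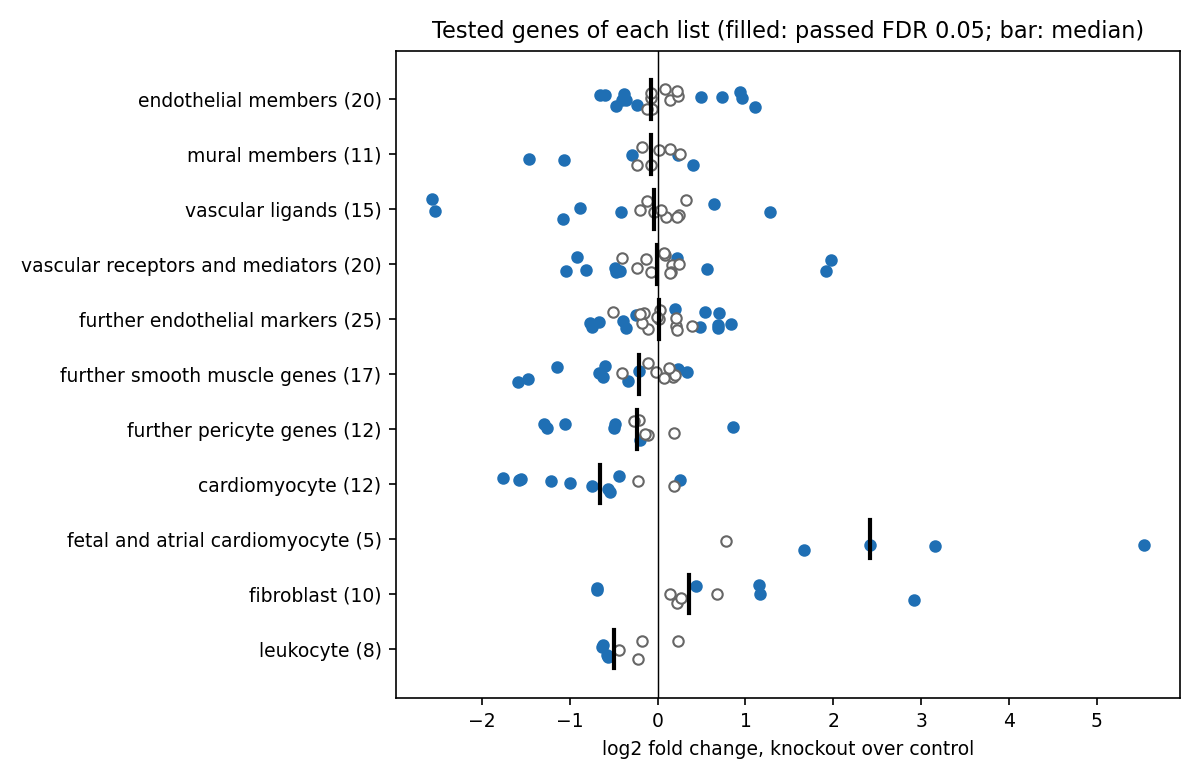
Log2 fold change, knockout over control (horizontal axis), of every tested gene in each list, with filled points for an adjusted p below 0.05 and a bar at the list's median; the number of tested genes is in parentheses. The 2 marker groups are centred near 0 (-0.07 and -0.08), the cardiomyocyte list at -0.66 and the fetal and atrial list at 2.42.

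Of the 31 genes 29 had the same call in the authors' deposited table, the exceptions being Tek and Mcam, which did not pass there. The log2 fold changes in the authors' deposited table differed from those above by -0.02 to 0.04. That table called 19.0% of its 24245 genes higher and 16.4% lower, with 5 endothelial genes higher and 6 lower and 1 mural gene higher and 3 lower.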

How the data were processed

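RNA of crude heart mitochondria was sequenced as paired ends on a MiSeq, per the labels' protocols, in 4 control and 4 knockout libraries. The deposited raw counts are whole reads per gene. The deposited normalized signal equals the raw count times 1 constant per library (largest relative deviation 4.75e-11) and served only for that check. In their deposited table the authors give a log2 fold change and its error on the log2 scale. The authors computed its p-values, raw and adjusted, with settings no source used here states. The authors' test statistic there is a score, and their mean signal is over the libraries. Per the submitters' processing notes, the build was mm10 and the tools included featureCounts, Bowtie2, bedtools, SAMtools 1.3.1, DESeq2 1.14.1 and R 3.3.2, with no roles stated. No source used here states whether counting used strand.

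Each gene was tested with edgeR 4.0.16 in R 4.3.3 (quasi-likelihood F test, TMM factors, filterByExpr with a minimum count of 10), two-sided, over 17891 genes with Benjamini-Hochberg adjustment at 0.05. The standard error of a log2 fold change is its size divided by the square root of F, and the biological coefficient of variation was 11.3%. The scaling factors lay between 0.689 and 0.733 for control libraries and between 1.03 and 1.61 for knockout libraries. Replicates are separate mice per the series text. The alternatives were DESeq2 1.42.0, RLE factors, library totals, no filter on low counts, nuclear genes only, a replicate block and leaving out each library.

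Tested on simulated counts for this comparison, over 17910 genes, edgeR recovered 86% of genes changed 1.5-fold, 98% at 2-fold and 100% at 4-fold and 8-fold, with 15 false calls among 207. DESeq2, over 19732 genes, recovered 78%, 96%, 100% and 100%, with 14 false calls among 201. The simulated counts had the same dispersion for every gene, few changed genes, all of them well counted, and no change in mtDNA share. The real libraries differ from that setting, so these rates were not measured for them or for genes of low counts.

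The 31 genes, the 13 other lists and the tests were chosen with earlier results of these data known, so counts are set beside the share of all genes called and no list is tested as a whole. The genes named are all 31 and, of each other list, up to 4 called genes by smallest p plus those that account for a count of 5 or fewer, with other names marked as chosen later. Of the genes this rule takes, 1 is not reported here. Not all genes of the larger counts are named. Exon lengths, overlaps and positions come from GENCODE vM21 (GRCm38), in which 25 of the 31 identifiers have the same version. Intervals are for the log2 fold change between the groups and come from its standard error. They rest on the variation between these libraries only and need not contain the value of each library.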

Additional observations from a re-analysis of the deposited data

How the results depend on the processing

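When libraries were scaled by their totals alone, the counts of genes called higher and lower were 19 and 0 for the endothelial genes, 9 and 1 for the mural genes, 28 and 2 for vascular ligands, receptors and mediators, 40 and 2 for the further markers, and 14066 and 480 for all genes; the endothelial and mural medians were 0.93 and 0.91. Among the genes followed through all settings, the log2 fold change changed sign there for Cdh5 (0.93), Esam (0.87), Icam2 (0.34), Emcn (0.93), Kdr (0.60), Tek (0.76), Tie1 (0.66), Robo4 (0.54), Erg (0.40), Egfl7 (0.89), Nos3 (0.62), Cnn1 (0.91), Mylk (0.76), Notch3 (0.72), Rgs5 (0.81), Dll4 (0.10), Vegfb (0.60), Nrp1 (0.17), Nrp2 (0.10), Aplnr (0.000551), Notch1 (0.58), Ushbp1 (0.26), Cav1 (0.33), Sox7 (0.25), Tpm1 (0.27), Dpt (0.32), Gsn (0.30), Ptprc (0.44), Lyz2 (0.37), C1qa (0.40) and C1qb (0.44). That setting moves the median of all genes by 0.99, and single genes by differing amounts. Other genes, such as Vegfa, changed sign there too. DESeq2 called 1 mural gene higher. RLE factors and nuclear genes only changed no call among the 31 genes. Same-numbered control and knockout libraries correlated at 0.01, -0.01, 0.02 and 0.05, and not every library correlated best with its own number. Such correlations give no sign of pairing by number, but they cannot show that same-numbered mice were unpaired. With a replicate block 6 endothelial genes were called higher and 7 lower and 2 mural genes higher and 4 lower; Eng (0.23) and Mylk (-0.24) passed, and Myh11 was at -0.0067. Leaving out 1 library at a time gave 5 to 7 endothelial genes higher and 6 to 8 lower, 1 to 3 mural genes higher and 3 to 5 lower, 3 to 8 and 11 to 12 for vascular signals, 8 to 12 and 17 to 21 for the further markers, and 4307 to 4909 and 3818 to 4716 for all genes. Mural genes called lower were 5 without knockout 1, and called higher 1 without control 1, 2 or 4 or knockout 3. The medians were -0.071 to -0.017 (endothelial) and -0.19 to -0.02 (mural), and their difference -0.13 to 0.026. Myh11, near 0, ranged from -0.12 to 0.12, being -0.02, -0.01, -0.03, -0.05 and -0.12 without control 1, 2 or 4 or knockout 1 or 3, and Egfl7 was at 0.0077 without knockout 3. Tcf21 lost its call in DESeq2, with the replicate block and in 5 of these fits. The cause of these changes was not tested. Low counts limit Cnn1 and Vegfd, with 74 and 33 counts over the controls.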
